A study of Mus musculus with 6 samples.

Results

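The genes described here are 45 cell cycle and DNA replication genes, chosen by symbol: 17 regulators of the G1 phase, 17 genes of DNA replication and 11 genes of mitosis. All 45 symbols were found among the 36333 rows of the deposited count table. The table comes from RNA sequencing of the pancreas of wild-type (WT) mice, with 3 libraries after intraperitoneal saline and 3 after intraperitoneal cerulein. Cerulein, an analogue of cholecystokinin that overstimulates the acinar cells, was given as 10 injections of 200 µl (200 µg/kg/h). The pancreas was collected at the end of that course. The labels give no age, sex or strain and do not say whether each library is a separate mouse, so p-values measure the spread between these libraries, which may be technical.

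A cell commits to division in G1, when D-type cyclins with Cdk4 or Cdk6, and then E-type cyclins with Cdk2, phosphorylate the retinoblastoma family and free E2F transcription factors. E2F factors drive the genes of replication licensing (Orc, Cdc6, Cdt1 and the Mcm helicase) and of nucleotide and DNA synthesis. Genes of mitosis follow later, in G2, under factors that bind the cell cycle genes homology region (CHR) and the NF-Y box of their promoters. In the adult pancreas most acinar cells are quiescent, and acinar cells that survive cerulein injury can re-enter the cell cycle during later repair.

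Promoter windows of 250 bases before to 50 bases after the annotated start show how far the roles differ in sequence. RefSeq windows (GRCm38.p6, the assembly of mm10) were found for 36 of the 45 genes, 40 windows in all, since some genes have more than 1 annotated start. An E2F motif, taken as any of TTTCCCGC, TTTGGCGC, TTTCGCGC or TTTGCCGC on either strand, was in 8 of 17 windows of replication genes (47.1%) and in 4 of 14 windows of G1 regulators (28.6%). It was in 1 of 9 windows of mitotic genes (11.1%), that of Cdk1, against 2.26% of all 32851 windows and 3.61% of the 12288 windows of genes tested below. A CHR motif, TTTGAA on either strand, was in 6 of 9 windows of mitotic genes (66.7%), 1 of 14 of G1 regulators (7.14%) and 1 of 17 of replication genes (5.88%). It was in 17.9% of all windows and 11.8% of the windows of genes tested. The NF-Y box, CCAAT on either strand, was in 13 of 17 windows of replication genes (76.5%) and 8 of 9 of mitotic genes (88.9%). In G1 regulators it was in 6 of 14 windows (42.9%), near the 37.4% of all windows and 36.6% of the windows of genes tested. A match describes the letters and is not evidence of a bound site. The windows of the 3 genes with the smallest p-values that have an entry are printed because they hold both kinds of response, Mcm6 and Cdt1 having risen and Cdkn1b having fallen. Capitals mark E2F motifs and NF-Y boxes. The Mcm6 window lies at chr1:128359656-128359955 on the minus strand, that of Cdt1 at chr8:122567765-122568064 on the plus strand, and that of Cdkn1b at chr6:134920151-134920450 on the plus strand.
Mcm6: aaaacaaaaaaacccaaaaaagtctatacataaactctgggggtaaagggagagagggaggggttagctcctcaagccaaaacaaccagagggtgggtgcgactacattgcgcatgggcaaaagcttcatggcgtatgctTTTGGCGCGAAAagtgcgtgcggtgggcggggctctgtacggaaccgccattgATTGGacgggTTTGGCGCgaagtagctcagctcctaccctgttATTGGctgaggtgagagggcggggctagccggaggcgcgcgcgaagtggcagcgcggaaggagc
Cdt1: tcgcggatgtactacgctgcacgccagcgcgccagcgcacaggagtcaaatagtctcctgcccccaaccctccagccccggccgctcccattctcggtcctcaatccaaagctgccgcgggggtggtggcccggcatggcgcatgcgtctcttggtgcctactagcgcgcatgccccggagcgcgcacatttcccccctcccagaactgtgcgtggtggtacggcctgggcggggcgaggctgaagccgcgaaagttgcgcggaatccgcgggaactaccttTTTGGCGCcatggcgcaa
Cdkn1b: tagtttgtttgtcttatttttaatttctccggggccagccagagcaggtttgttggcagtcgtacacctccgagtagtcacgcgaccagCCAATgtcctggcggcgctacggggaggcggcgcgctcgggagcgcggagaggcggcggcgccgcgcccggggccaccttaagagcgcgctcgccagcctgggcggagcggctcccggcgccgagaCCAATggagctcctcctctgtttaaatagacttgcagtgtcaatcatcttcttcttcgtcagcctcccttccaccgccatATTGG
The Mcm6 window held 3 E2F matches, of which a pair overlap, and 2 NF-Y boxes. The Cdt1 window held 1 E2F match and no NF-Y box, and the Cdkn1b window held 3 NF-Y boxes and no E2F match.

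**Figure D1:**
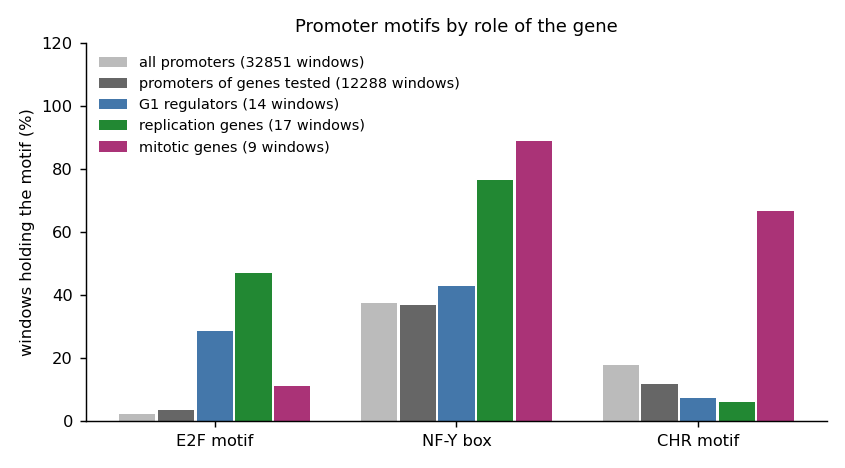
Share of promoter windows (percent, y axis) that hold an E2F motif, an NF-Y box or a CHR motif (x axis), for all RefSeq windows, for windows of genes tested and for the 3 roles. The E2F share is highest in replication genes at 47.1% and the CHR share in mitotic genes at 66.7%.

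Total counts per library lay between 5335117 and 7610775. Values are given as CPM (counts per 1000000) relative to a library size scaled by TMM factors, a trimmed mean that lessens the weight of a few abundant transcripts. The factors were 0.719 to 1.03 in saline and 1.13 to 1.30 in cerulein. Before this scaling the 45 genes stood at 260.2 to 378 CPM of the raw total in saline and 486 to 562 CPM in cerulein. The fixed list of 10 acinar markers, led by the digestive enzymes, summed to 215386 to 456348 CPM in saline and 121710 to 145223 CPM in cerulein, and 9 of the 10 fell while 1 rose. In bulk tissue, fewer cells of a type and less RNA per cell cannot be told apart. Saline replicate 1 stood apart from the other saline libraries, with the lowest acinar sum and the highest sums of neutrophil markers (203 CPM against 18.2 and 40.9) and lymphocyte markers (81.8 CPM against 8.56 and 57.6). Scaling by library size alone moved the median log2 fold change over the 12441 tested genes from 0.00 to 0.56, and upper-quartile scaling lowered it to -0.20, so each direction given here holds under TMM scaling.

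Of the 45 genes, 29 had enough reads to be tested with edgeR's quasi-likelihood test (called at an adjusted p under 0.05): 15 G1 regulators, 12 replication genes and 2 mitotic genes. With cerulein 6 rose and 4 fell, or 34.5%, where 55.8% of all 12441 genes tested were called in either direction. The genes that rose were E2f4, Cdkn1c, Cdt1, Mcm6, Mcm7 and Rrm2, and those that fell were Cdkn2c, Cdkn1b, Rb1 and Ccnd3. These are 20.7% and 13.8% of the members tested, below the 28.7% of all genes tested that were called higher and the 27.1% called lower. The filter keeps a gene that is well read in only 1 group, so the tested members are not all members. Among the 29 tested, the CPM of the groups did not overlap for 10 that lay higher and 5 that lay lower, where 63% of all genes tested did not overlap; of the members not tested, E2f7 lay higher and Rfc4 and Prim1 lower without overlap. The median log2 fold change was -0.01 over the 29 members, -0.01 over the G1 regulators, 0.51 over the replication genes and -0.31 over the pair of mitotic genes, and 0.00 over the 12441 genes, whose middle 50% of values ran from -0.73 to 0.73. The replication median was 0.012 without cerulein replicate 1, -0.056 with no count filter and 0.076 with the CPM filter, and the mitotic median was 0.30 without saline replicate 1. The members tested depend on the filter and the libraries kept, so these medians need not cover the same genes as the main fit. With no count filter all 17 replication genes entered. Summed CPM of the 17 G1 regulators was 275 ± 9.62 in saline and 318 ± 11.2 in cerulein, and that of the 17 replication genes was 80.8 ± 2.11 and 102 ± 8.13 (SD, n = 3 each). For both sums every cerulein library lay above every saline library. In the replication sum the largest gains in mean CPM were those of Mcm6 (6.88 to 17.7), Rrm2 (8.35 to 14.4) and Cdt1 (3.02 to 7.97). The rise was not shared by all: of the 12 replication genes tested, 7 had a positive log2 fold change and 5 a negative one. The higher G1 sum rests on E2f4: without it the other 16 genes summed to 250.5 ± 10.8 and 238 ± 5.63 CPM, with overlapping groups, a comparison added after the values were seen. With upper-quartile factors the log2 ratio of cerulein over saline went from 0.21 to 0.012 for the G1 sum and from 0.34 to 0.14 for the replication sum. The 11 mitotic genes summed to 15.9 ± 5.32 and 13.1 ± 3.01 CPM, with overlapping groups. With library size alone, 13 of the 29 members tested were called higher and 1 lower, where 5181 and 1449 of all 12441 genes tested were.

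**Figure D2:**
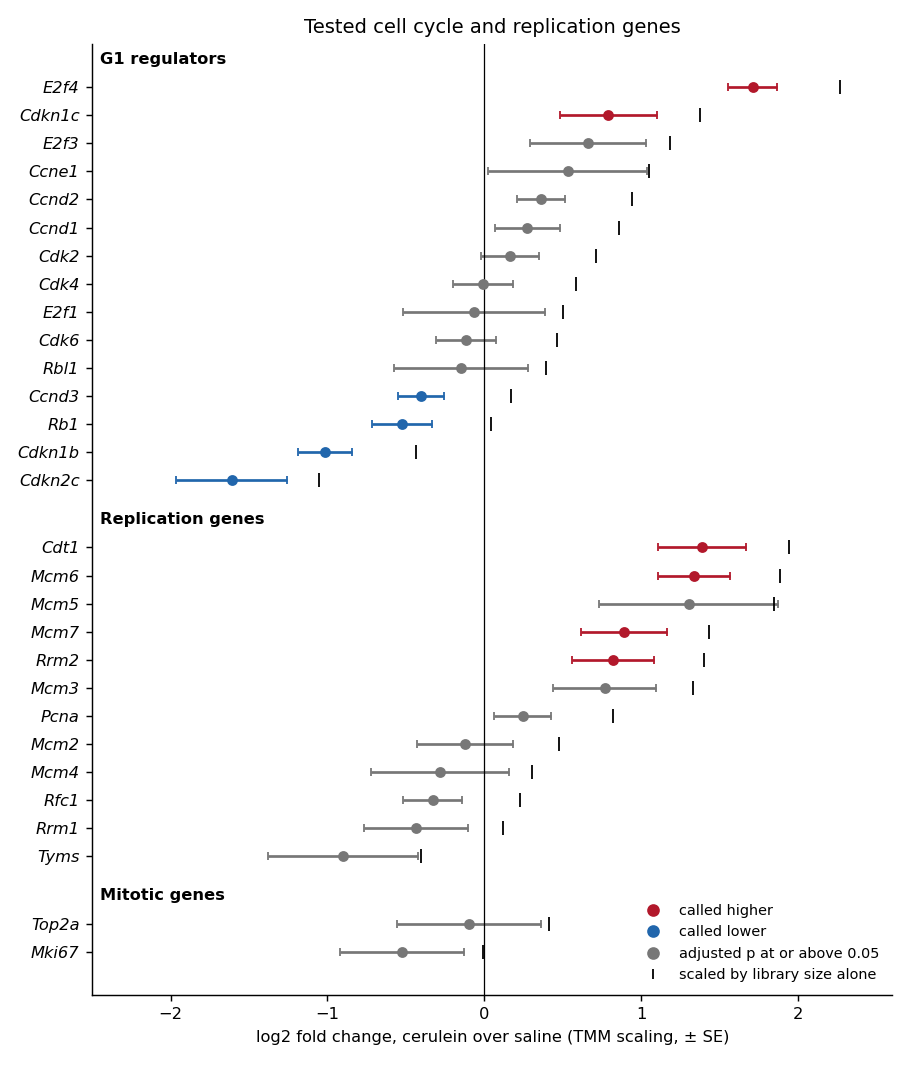
The log2 fold change of cerulein over saline (x axis, ± SE from edgeR, n = 3 each) for each of the 29 members tested (y axis), grouped by role, with black ticks for the value scaled by library size alone. E2f4, Cdt1 and Mcm6 lie farthest to the right and Cdkn2c farthest to the left, and library size alone moves every member to the right.

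The D-type cyclins, which carry growth signals to Cdk4 and Cdk6, moved unequally. Ccnd3 stood at 35.1, 36.7 and 37.0 CPM in saline replicates 1, 2 and 3 and at 25.7, 28.5 and 27.9 CPM in cerulein replicates 1, 2 and 3. Every cerulein library was below every saline library, and Ccnd3 fell, with a log2 fold change of -0.40 ± 0.15 (SE, adjusted p = 0.0346, edgeR). Ccnd2 had 60.8, 62.6 and 63.8 CPM in saline and 73.0, 73.7 and 93.7 CPM in cerulein, higher in each cerulein library, but with a log2 fold change of 0.36 ± 0.15 it missed the threshold (adjusted p = 0.0573, edgeR). Ccnd1 had 13.7, 14.4 and 14.7 CPM in saline and 22, 14.3 and 15.3 CPM in cerulein. Its groups overlapped, with only cerulein replicate 1 clearly above saline, and the log2 fold change was 0.27 ± 0.21 (adjusted p = 0.277). The ratio of Ccnd2 to Ccnd3 reads within a library needs no scaling. It was 1.73, 1.71 and 1.72 in saline and 2.84, 2.58 and 3.36 in cerulein, a pair chosen after the values were seen. The Ccnd3 call was lost with library size alone (log2 fold change 0.17), with DESeq2, without a count filter and without any 1 library other than saline replicate 1. Ccnd1 and Ccnd2 were called higher with library size alone, and Ccnd2 also without a count filter. Exons of Bysl overlap 14.8% of the exon length of Ccnd3, and exons of LTO1 overlap 21.9% of that of Ccnd1.

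The kinase partners did not pass the test. Cdk4 had 25.9, 32.9 and 42.7 CPM in saline and 32.0, 37.2 and 30.7 CPM in cerulein (log2 fold change -0.01 ± 0.19), and Cdk6 15.2, 14.6 and 15.9 against 16.3, 11.8 and 14.0 CPM (-0.12 ± 0.19). Cdk2, the partner of cyclin E, had 14.4, 11.7 and 13.9 CPM in saline and 14.8, 16.1 and 13.9 in cerulein (0.16 ± 0.19). For each of the 3 kinases the groups overlapped, and the adjusted p was 0.973, 0.627 and 0.482 (edgeR). With library size alone Cdk2 and Cdk4 were called higher. Cdk4 shares 31.2% of its exon length with Tspan31, so part of its reads may be uncounted or shared. Ccne1, encoding cyclin E1, was counted 13, 3 and 3 times in saline and 18, 14 and 10 times in cerulein, a log2 fold change of 0.53 ± 0.50 (adjusted p = 0.394). Ccne2, encoding cyclin E2, had 4, 1 and 4 reads in saline and 2, 5 and 8 in cerulein, too few to be tested. At these depths no change of either E-type cyclin was detectable.

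The inhibitors of cyclin-dependent kinases split in direction. Cdkn1b, which encodes p27-Kip1, an inhibitor of cyclin E with Cdk2 that is abundant in quiescent cells, had 39.7, 40.1 and 38.1 CPM in saline and 23.3, 16.8 and 18.1 CPM in cerulein. The groups were far apart beside their spread, and Cdkn1b fell by 1.02 ± 0.17 on the log2 scale, to 0.494 times the saline level (adjusted p = 0.00023, edgeR). Cdkn2c, encoding the Cdk4 and Cdk6 inhibitor p18-Ink4c, had 5.55, 6.31 and 6.68 CPM in saline and 2.01, 2.69 and 1.26 CPM in cerulein. All cerulein libraries were below all saline libraries, and it fell by 1.61 ± 0.35 (adjusted p = 0.00164), the largest fall among the members tested. Cdkn1c, the imprinted gene of p57-Kip2, had 2.84, 4.05 and 4.63 CPM in saline and 5.56, 5.85 and 8.08 CPM in cerulein. It rose by 0.79 ± 0.31 (adjusted p = 0.0447), with the groups not overlapping but close. Cdkn1a, the p21 gene and a p53 target, is not a member but is the inhibitor with the largest change: 163, 80.6 and 98.5 CPM in saline against 625, 731 and 648 CPM in cerulein, a rise of 2.54 ± 0.25 (adjusted p = 2.91e-06). It is on the list of other G1 genes with Cdkn2d, Cdkn2a and Cdkn2b, which are named after their values were seen. Cdkn2d lay higher in each cerulein library but did not pass (0.41 ± 0.27, adjusted p = 0.219, edgeR). Cdkn2a had 2 reads in all libraries together and Cdkn2b had 0. The ratio of Cdkn1c to Cdkn1b reads, chosen after the values were seen, was 0.0981 ± 0.0251 in saline and 0.344 ± 0.105 in cerulein (SD, n = 3). The Cdkn1b call was lost with library size alone, at -0.44. The Cdkn1c call was lost with DESeq2, with upper-quartile factors and without any 1 library other than cerulein replicate 1, and 30.3% of its exon length is shared with Gm44732.

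Among the retinoblastoma family, which holds E2F factors in check, Rb1 had 16.9, 19.6 and 17.7 CPM in saline and 12.4, 14.5 and 10.6 CPM in cerulein. The groups did not overlap, and Rb1 fell by 0.53 ± 0.19 in log2 units (adjusted p = 0.0306, edgeR). Rbl1, encoding p107, was low, at 13, 6 and 7 reads in saline and 11, 14 and 12 in cerulein, and did not pass (log2 fold change -0.15 ± 0.43, adjusted p = 0.793). Rbl2, encoding the family member p130 that pairs with E2f4 in quiescent cells, is on the list of other G1 genes. It had 15.2, 12.8 and 11.8 CPM in saline and 1.89, 0.702 and 0.505 CPM in cerulein, a fall of 3.66 ± 0.38 (adjusted p = 4.39e-06). Exons of Aktip and Gm45464 overlap 16.8% of its exon length. The Rb1 call was lost with library size alone (0.042), with DESeq2, without a count filter and without saline replicate 2, saline replicate 3, cerulein replicate 1 or cerulein replicate 3.

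E2f4, a repressor-type E2F and the most abundant E2F of the list, had the largest rise of the members tested. It stood at 25.6, 23.7 and 23.1 CPM in saline and at 67.8, 84.8 and 85.1 CPM in cerulein. Every cerulein library was more than double any saline library, and the log2 fold change was 1.71 ± 0.16, or 3.27-fold (adjusted p = 1.31e-06, edgeR). The activating factors did not pass. E2f1 had 9, 10 and 5 reads in saline and 13, 13 and 11 in cerulein (log2 fold change -0.07 ± 0.45, adjusted p = 0.914), and E2f3 had 4.06, 2.48 and 1.54 CPM in saline and 4.97, 4.33 and 4.17 CPM in cerulein (0.66 ± 0.37, adjusted p = 0.147). E2f3 lay higher in all cerulein libraries, with saline replicate 1 close behind them, and it passed without saline replicate 1. E2f7, an atypical repressor that E2F itself induces, was counted 4, 0 and 0 times in saline and 13, 11 and 8 times in cerulein. It fell below the count filter. With no count filter its log2 fold change was 2.38 (adjusted p = 0.0137, edgeR). With a filter of CPM above 1 in 3 libraries it was 2.32 (adjusted p = 0.0239). The ratio of E2f4 to Rb1 reads, a pair chosen after the values were seen, was 1.51, 1.21 and 1.30 in saline and 5.46, 5.85 and 8.02 in cerulein.

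**Figure D3:**
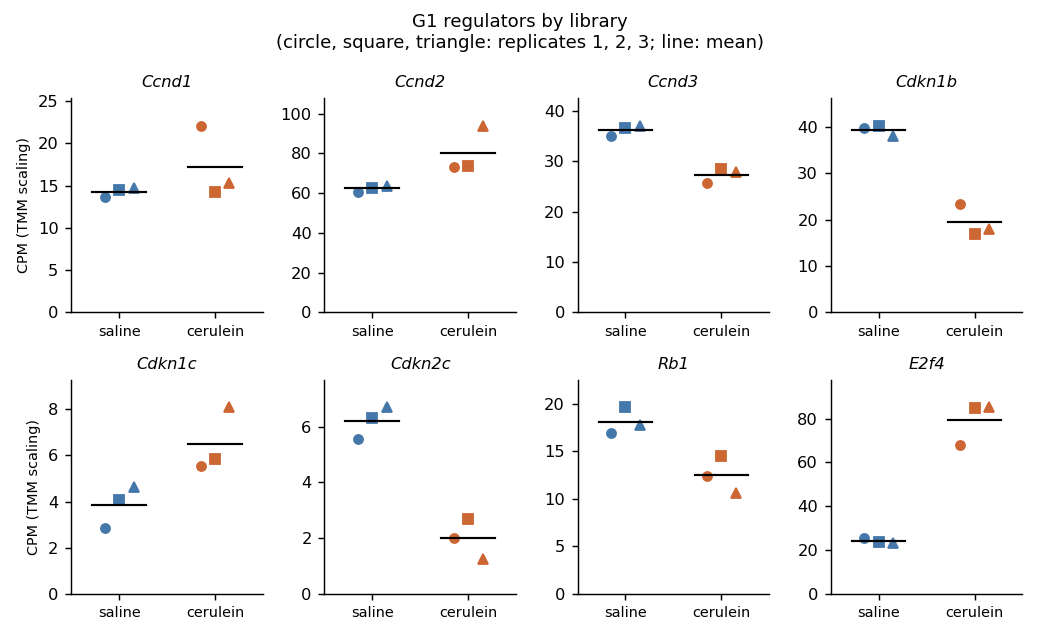
CPM (y axis, TMM scaling) of 8 G1 regulators in each saline and cerulein library (points) with the group mean (line). E2f4 lies near 24.1 CPM in saline and 79.3 CPM in cerulein, Cdkn1b near 39.3 and 19.4 CPM, and only Ccnd1 has overlapping groups.

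On the list of 24 other G1 genes, 20 were tested, of which 2 rose and 8 fell, or 10.0% and 40.0% beside 28.7% and 27.1% of all genes tested, and 50% beside 55.8% in either direction. Tfdp2, a DP subunit that dimerizes with E2F factors, fell by 2.94 ± 0.17 in log2 units, from 97.4 ± 16.2 to 12.7 ± 0.81 CPM (SD, n = 3; adjusted p = 3.19e-08, edgeR). The gene of the other DP subunit on the list, Tfdp1, rose by 0.66 ± 0.19 (adjusted p = 0.00859), and the ratio of Tfdp1 to Tfdp2 reads went from 0.165 ± 0.0532 to 1.94 ± 0.14. All 3 subunits of the kinase that activates cyclin-dependent kinases were lower: Mnat1 fell by 1.82 ± 0.27, Ccnh by 1.64 ± 0.25 and Cdk7 by 1.11 ± 0.20. Lin37 and Lin52, subunits that join p130 or p107 and E2f4 in the DREAM repressor complex, fell by 1.88 ± 0.28 and 1.01 ± 0.30. Lin9 and Lin54, on the same list, did not pass (-0.77 ± 0.40, adjusted p = 0.123, and -0.38 ± 0.24, adjusted p = 0.199, edgeR). Beside Rbl2, given above, the remaining fall was Rbbp4, at -0.84 ± 0.22 (adjusted p = 0.00572, edgeR), whose call was not followed in the alternatives. Tfdp1, Ccnh, Cdk7, Lin37, Lin52, Lin9, Lin54 and Rbbp4 are named after their values were seen. The call of Tfdp1 was lost with upper-quartile factors, at 0.46. Those of Cdk7 and Lin52 were lost with library size alone, at -0.54 and -0.46, and that of Lin52 also without cerulein replicate 1.

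Replication licensing loads the Mcm2 to Mcm7 helicase onto origins with the help of Orc, Cdc6 and Cdt1. Cdt1 had 3.25, 2.48 and 3.34 CPM in saline and 8.40, 8.19 and 7.32 CPM in cerulein, a clear separation, and rose by 1.39 ± 0.28 in log2 units (adjusted p = 0.000905, edgeR). Cdc6 was close to unread, at 0, 0 and 3 reads in saline and 7, 6 and 4 in cerulein. Orc1, the origin recognition subunit that cycles, had 6, 4 and 1 reads in saline and 1, 5 and 2 in cerulein. Both were too low to be tested. Of the other Orc subunits, Orc3 fell by 1.41 ± 0.17 (adjusted p = 1.36e-05) and Orc2 by 0.79 ± 0.27 (adjusted p = 0.0241), the latter named after its value was seen, while Orc4, Orc5 and Orc6 did not pass. The Orc2 call was lost with library size alone, at -0.22, and without saline replicate 2 or any 1 cerulein library.

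The 6 helicase subunits, which form a ring of 1 copy each, differed in call: 2 rose, none fell and 4 did not pass, a share of 33.3% higher beside 28.7% of all genes tested. Mcm6 had 8.13, 7.88 and 4.63 CPM in saline and 18.8, 18.7 and 15.7 CPM in cerulein. All cerulein libraries were well above saline, and it rose by 1.34 ± 0.23 in log2 units (adjusted p = 0.000293, edgeR). Mcm7 had 4.47, 3.15 and 4.11 CPM in saline and 7.34, 7.96 and 6.69 CPM in cerulein, a rise of 0.89 ± 0.27 (adjusted p = 0.0141) that lost its call without cerulein replicate 2. Exons of Ap4m1 and Cops6 overlap 13.0% of its exon length. Mcm3 had 4.33, 3.38 and 3.09 CPM in saline and 8.52, 4.45 and 5.81 CPM in cerulein (0.77 ± 0.33, adjusted p = 0.0629), higher in each cerulein library by a small margin. It passed with library size alone, with no count filter and without cerulein replicate 2.

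Mcm5 was read 11, 2 and 3 times in saline and 34, 12 and 15 times in cerulein (log2 fold change 1.30 ± 0.57, adjusted p = 0.067, edgeR). Its cerulein replicate 2 lay just under saline replicate 1 in CPM, and it passed without either of these libraries, with library size alone and with no count filter. Mcm2 had 5.01, 7.21 and 8.48 CPM in saline and 8.28, 5.62 and 4.67 CPM in cerulein (-0.12 ± 0.31). Mcm4 had 5.15, 4.73 and 4.37 CPM in saline and 6.98, 1.76 and 3.03 CPM in cerulein (-0.28 ± 0.44). In both of these, cerulein replicate 1 was the highest of its group and the groups overlapped. Cerulein replicate 1 was also the highest cerulein library for Mcm3, Mcm5 and, narrowly (18.82 against 18.72 CPM), Mcm6. It had the highest cerulein sum of lymphocyte markers (89.1 CPM against 49.3 and 51.6), stellate cell and fibroblast markers (473 against 369 and 352), duct markers (1593 against 1497 and 1172), endothelial markers (186 against 178 and 153) and, narrowly, monocyte and macrophage markers (555 against 551 and 494). Its sums of neutrophil markers (49.5 against 88.9 and 118.6) and acinar markers (121710 against 145223 and 122577) were the lowest. Its islet sum lay between the others (1569 against 1671 and 1008). The part of any of those cells in the Mcm values was not tested. The ratio of Mcm6 to Mcm2 reads, chosen after the values were seen, was 1.62, 1.09 and 0.545 in saline and 2.27, 3.33 and 3.35 in cerulein. Per kilobase of exon, the level of Mcm6 was 1.57 ± 0.446 CPM in saline, beside 2.05 ± 0.521 for Mcm2, and 4.05 ± 0.411 in cerulein, beside 1.84 ± 0.556 for Mcm2 (SD, n = 3). The difference in level between these subunits was within the spread in saline but not in cerulein. Mcm5 had the lowest level per kilobase of the 6 in both groups, at 0.261 ± 0.154 and 0.706 ± 0.403 CPM, though Mcm4 lay within the spread of Mcm5 in cerulein at 1.09 ± 0.759 CPM.

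**Figure D4:**
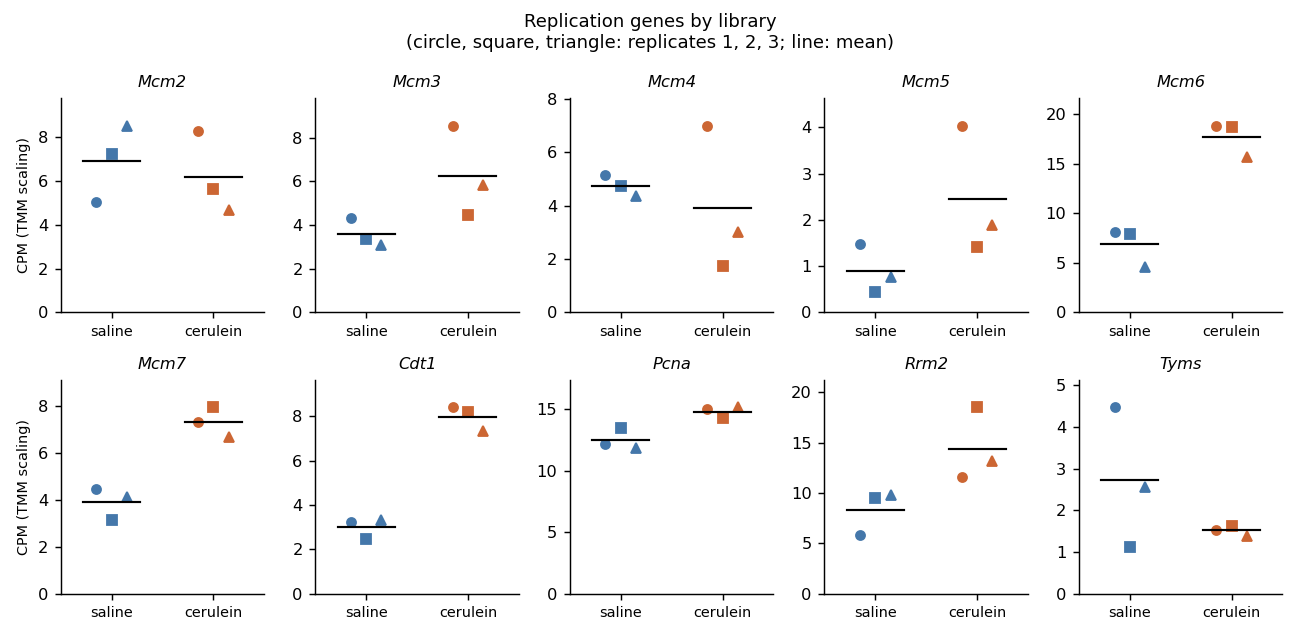
CPM (y axis, TMM scaling) of the 6 helicase subunits, Cdt1, Pcna, Rrm2 and Tyms in each library (points) with the group mean (line). Mcm6, Mcm7 and Cdt1 separate the groups, while Mcm2 and Mcm4 overlap and cerulein replicate 1 (circle) is the highest cerulein point for Mcm2 to Mcm6.

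Of the 3 members that supply nucleotides, Rrm2 rose while Rrm1 and Tyms did not pass. Rrm2, the regulated small subunit of ribonucleotide reductase, had 5.82, 9.46 and 9.77 CPM in saline and 11.6, 18.5 and 13.1 CPM in cerulein. The groups did not overlap, and it rose by 0.82 ± 0.26 in log2 units (adjusted p = 0.0173, edgeR). Its partner subunit Rrm1 had 5.69, 3.6 and 7.71 CPM in saline and 4.85, 4.33 and 3.28 CPM in cerulein (-0.44 ± 0.33, adjusted p = 0.283), with overlapping groups. Tyms, which makes thymidylate, had 4.47, 1.13 and 2.57 CPM in saline and 1.54, 1.64 and 1.39 CPM in cerulein (-0.90 ± 0.48, adjusted p = 0.126), and its saline spread covered all cerulein values; it was called lower without saline replicate 2. Dut, a dUTPase on the list of other replication genes, fell by 1.06 ± 0.35 (adjusted p = 0.0219). It is named after its value was seen, and its call was lost with library size alone, with no count filter, under DESeq2 and without saline replicate 2 or cerulein replicate 2 or 3. The Rrm2 call was lost without saline replicate 1, without cerulein replicate 2 and with upper-quartile factors.

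The fork genes Pcna and Rfc1 were tested and did not pass. Pcna, the sliding clamp, had 12.2, 13.5 and 11.8 CPM in saline and 15, 14.3 and 15.2 CPM in cerulein. Each cerulein library was higher than each saline library, but the difference was small and missed the threshold (log2 fold change 0.24 ± 0.18, adjusted p = 0.27, edgeR). Pcna was called higher with library size alone. Rfc1, the large subunit of the clamp loader, had 16.5, 17.1 and 14.4 CPM in saline and 11.1, 14.0 and 13.1 CPM in cerulein (-0.33 ± 0.19, adjusted p = 0.151), and was called lower with upper-quartile factors alone. Rfc4, a small subunit of the same loader, was counted 8, 6 and 7 times in saline and 0, 3 and 3 times in cerulein. With no count filter its log2 fold change was -2.35 (adjusted p = 0.0128, edgeR). The primase gene Prim1 was counted 18, 6 and 10 times in saline and 7, 8 and 5 times in cerulein. Pola1, the catalytic subunit of the polymerase that works with primase, had 9, 3 and 6 reads in saline and 10, 3 and 4 in cerulein. Prim1 was lower in CPM in every cerulein library (log2 fold change -1.32 with no count filter, adjusted p = 0.0603, edgeR). It was called lower with a filter of CPM above 1 in 3 libraries (-1.38, adjusted p = 0.0266), while Pola1 overlapped.

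Of 47 other replication genes, 46 were in the table and 30 were tested; 4 rose and 6 fell, or 33.3% beside 55.8% of all genes tested. Dbf4, the activator of the Cdc7 kinase that fires licensed origins, rose by 1.73 ± 0.31 in log2 units, from 2.39 ± 0.566 to 8.02 ± 1.37 CPM (SD, n = 3; adjusted p = 0.000377, edgeR), whereas Cdc7 itself did not pass (-0.45 ± 0.51). Pole4, a small subunit of DNA polymerase epsilon, rose by 1.30 ± 0.24, and Rpa1, the large subunit of the single-strand binding protein, fell by 0.99 ± 0.21. The other rises were the DNA polymerase delta subunits Pold1 and Pold3, at 0.82 ± 0.28 and 0.57 ± 0.17, named after their values were seen. Gins4 and Topbp1 also fell, by 0.91 ± 0.33 (adjusted p = 0.0328) and 0.68 ± 0.26 (adjusted p = 0.0422, edgeR). They too are named after their values were seen, and their calls were not followed in the alternatives. The remaining falls, Orc2, Orc3 and Dut, are given above. The Rpa1 call was lost with library size alone, at -0.42. Those of Pold1 and Pold3 were lost with upper-quartile factors, at 0.62 and 0.37, and without saline replicate 3, and that of Pold1 also under DESeq2 and without saline replicate 2 or cerulein replicate 1 or 2.

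Most mitotic genes were near the limit of detection. One read was worth 0.117 to 0.257 CPM, depending on the library, and 9 of the 11 genes did not reach the count filter. Mki67, the gene of the proliferation marker Ki-67, was read 78, 19 and 18 times in saline and 57, 27 and 33 times in cerulein, or 10.6, 4.28 and 4.63 CPM against 6.75, 3.16 and 4.17 CPM. The highest of all libraries was saline replicate 1, the groups overlapped, and the log2 fold change was -0.52 ± 0.39 (adjusted p = 0.279, edgeR). Top2a, a topoisomerase of dividing cells, was read 34, 6 and 9 times in saline and 32, 20 and 16 times in cerulein (4.60, 1.35 and 2.31 against 3.79, 2.34 and 2.02 CPM; -0.10 ± 0.46, adjusted p = 0.874). Saline replicate 1 was again the highest.

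Without saline replicate 1 the log2 fold changes were 0.05 for Mki67 and 0.55 for Top2a, and neither passed. In saline replicate 1 the neutrophil, monocyte and macrophage, and lymphocyte marker sums were 203, 314 and 81.8 CPM, against at most 40.9, 212 and 57.6 CPM in the other saline libraries. Of the 8 neutrophil, 8 monocyte and macrophage and 9 lymphocyte markers, 6, 8 and 6 were tested, with Ms4a1 at 0 in all libraries. Of those tested, 1, 5 and 0 rose after cerulein and none fell, beside 28.7% and 27.1% of all genes tested. The summed level ran from 18.2 to 203 CPM in saline and 49.5 to 118.6 CPM in cerulein for neutrophils, from 137 to 314 and 494 to 555 CPM for monocytes and macrophages, and from 8.56 to 81.8 and 49.3 to 89.1 CPM for lymphocytes. The part of such cells in the Mki67 and Top2a reads was not tested.

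The other 9 mitotic genes had at most 11 reads in any library. Together they were read 43, 21 and 36 times in saline replicates 1, 2 and 3 and 51, 54 and 38 times in cerulein replicates 1, 2 and 3, which is 5.82, 4.73 and 9.26 CPM against 6.04, 6.32 and 4.80 CPM. The groups overlapped. Cdk1, the mitotic kinase, had 3, 2 and 3 reads in saline and 4, 11 and 4 in cerulein. Its cyclins were as low: Ccna2 had 9, 3 and 5 against 9, 11 and 9 reads, Ccnb1 1, 4 and 1 against 3, 0 and 1, and Ccnb2 7, 4 and 10 against 9, 9 and 8. The mitotic kinase genes Aurka, Aurkb, Plk1 and Bub1 had 0 to 9 reads in any library, and Birc5, encoding survivin, had 1 to 9. With no count filter none of these 9 genes was called, so no change of any of them was detectable at this depth. The shape of the counts can be seen in the plot of mitotic reads by library.

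**Figure D5:**
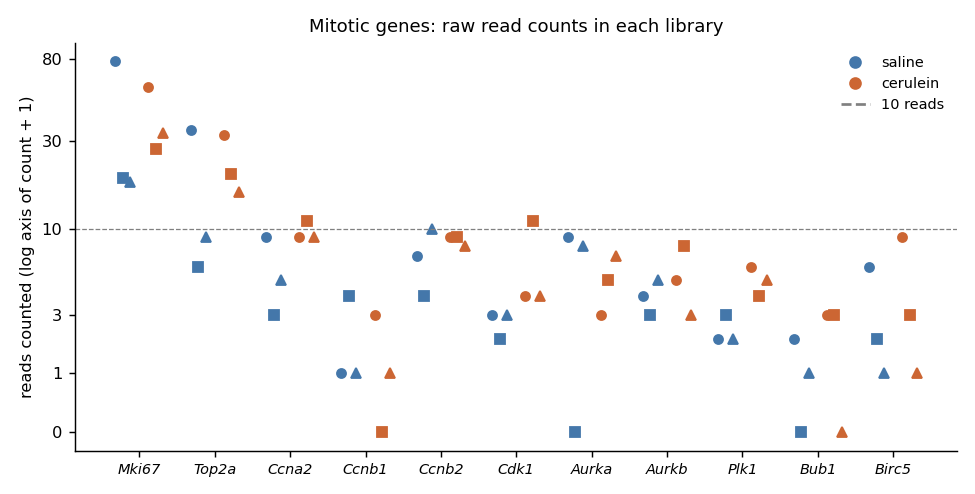
Raw reads (y axis, log axis of count + 1) of the 11 mitotic genes (x axis) in each saline and cerulein library, with circle, square and triangle for replicates 1, 2 and 3 and a dashed line at 10 reads. Mki67 lies above the line in every library and Top2a in all but saline replicates 2 and 3, and saline replicate 1 holds their highest counts, 78 and 34.

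Of 50 other mitotic genes, 21 were tested, of which 6 rose and 4 fell, or 47.6% beside 55.8% of all genes tested. Pkmyt1, a kinase that inhibits Cdk1, rose from 2.86 ± 1.22 to 8.48 ± 1.29 CPM (SD, n = 3), a log2 fold change of 1.5 ± 0.33 (adjusted p = 0.0016, edgeR). Ccnf, encoding the ubiquitin ligase subunit cyclin F, was read 3, 2 and 1 times in saline and 15, 31 and 14 times in cerulein and rose by 2.6 ± 0.59 (adjusted p = 0.00225). Subunits of the anaphase-promoting complex, which also keeps mitotic cyclins low in resting cells, differed in sign. Of its 10 genes on the list, Fzr1 included, 8 were tested: 2 rose, 3 fell and 3 did not pass. That is 62.5% called, near the 55.8% of all genes tested. Anapc2 rose by 1.06 ± 0.16 and Anapc7 by 0.93 ± 0.19, while Anapc1, Anapc4 and Anapc5 fell by 0.74 ± 0.19, 0.56 ± 0.20 and 0.63 ± 0.15, the last 3 named after their values were seen. The other rises were Cdc20, an activator of that complex, at 1.61 ± 0.54 (adjusted p = 0.021), and Bub3, a spindle checkpoint gene, at 0.62 ± 0.20 (adjusted p = 0.0198), both named after their values were seen. The Cdc20 call was lost under DESeq2 and on leaving out the first or the third saline library or the third cerulein library. The Bub3 call was lost with upper-quartile factors and on leaving out the second saline library or the second or the third cerulein library. The fourth mitotic gene that fell was Pttg1, which encodes securin, with a log2 fold change of -0.94 ± 0.29, also named after its value was seen; its call was lost with library size alone, at -0.37, and without saline replicate 2 or cerulein replicate 1 or 3. The Anapc1, Anapc4 and Anapc5 calls were lost with library size alone, at -0.18, 0.0026 and -0.069, and that of Anapc4 was also lost with no count filter, under DESeq2, and without saline replicate 3 or any 1 cerulein library. Foxm1 and Mybl2, the transcription factors that drive G2 genes, were not tested, with 11, 3 and 6 against 21, 9 and 9 reads and 17, 6 and 5 against 5, 10 and 18 reads.

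Per kilobase of exon, the level of a tested member averaged over all libraries was highest for E2f4, at 12.1 ± 0.65 CPM in saline and 39.8 ± 4.97 CPM in cerulein, and lowest for Rbl1, at 0.337 ± 0.0511 and 0.305 ± 0.035 CPM (SD, n = 3). In saline the highest levels were those of Cdk4, at 16.5 ± 4.11, and Ccnd3, at 14.8 ± 0.428 CPM, which lay within the spread of each other. In cerulein E2f4 was above Cdk4, at 16.2 ± 1.68, by more than the spread, and Ccnd2 and Ccnd3, at 11.9 ± 1.75 and 11.2 ± 0.615 CPM, could not be ordered. Pcna, at 8.24 ± 0.585 and 9.76 ± 0.314 CPM, had the highest level per kilobase of the tested replication members in both groups. Of the other replication genes, named after their values were seen, Orc5 lay above it in both groups, at 24.98 and 24.3 CPM, Orc3 did so in saline, and Rrm2b, at 10.4 and 9.91 CPM, had a higher mean in both. Mki67 and Top2a, at 0.645 ± 0.351 and 0.528 ± 0.32 CPM in saline, lay within each other's spread and far below Cdk4 and Ccnd3.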

How the data were processed

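RNA from mouse pancreas kept in RNAlater was sequenced from poly(A)-selected, stranded libraries, per the labels' protocols. Each library has a column of unnormalized read counts per gene, as deposited by the authors. Trimmomatic, STAR and HTSeq with mm10 are named in the submitters' processing notes, with no version. The annotation release and the strand setting: not given in the sources used here. Counts were fitted for all genes in edgeR 4.0.16 (R 4.3.3) with TMM factors, filterByExpr (minimum count 10, minimum total 15) and the robust quasi-likelihood test, two-sided, with Benjamini-Hochberg adjustment over 12441 genes. Standard errors were derived from the F statistics. CPM per kilobase used the union of exons in the GENCODE basic set for GRCm38, and shared exon length came from the same annotation. Counting may lose or share reads where genes overlap. The code was tested on simulated data.

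The members and lists were chosen with earlier results of these data known. All 45 members could be named, with the 4 smallest p-values among called genes of each other list, Cdkn1a, Foxm1 and Mybl2. Alternatives were upper-quartile and RLE factors, library size alone, other count filters, DESeq2 1.42.0, limma-voom 3.58.1, each library left out and a replicate block. Sums of marker genes for 8 cell types were taken from lists; summed CPM ranged from 1172 to 1593 in cerulein and 167 to 202 in saline for duct, 1008 to 1671 and 802 to 1905 for islet, 352 to 473 and 390 to 452 for stellate cell and fibroblast, and 153 to 186 and 154 to 175 for endothelial markers.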

Additional observations from a re-analysis of the deposited data

How the results depend on the processing

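Scaling by library size alone had the widest effect: of 56 genes followed singly, 29 kept their call and direction. With RLE factors all 56 kept theirs, and with upper-quartile factors 48 did. With library size alone, the numbers called higher and lower were 13 and 1 over the 29 members tested, 6 and 1 for 15 G1 regulators, 7 and 0 for 12 replication genes. The median log2 fold changes were 0.59, 0.59 and 1.07 for these sets. Over all 12441 genes tested the numbers were 5181 and 1449, and the median was 0.56. On the lists of other genes, 6 were lower in all, 5 of them G1 genes, 1 a replication gene and 0 mitotic, and 8 replication genes were higher. The log2 ratio of summed CPM was 0.79 for G1 regulators, 0.91 for replication genes and 0.25 for mitotic genes, in place of 0.21, 0.34 and -0.27. The signs turned for Ccnd3 (0.17), Cdk4 (0.59), Cdk6 (0.46), Rb1 (0.042), Rbl1 (0.39), E2f1 (0.50), Mcm2 (0.48), Mcm4 (0.30), Rfc1 (0.23), Rrm1 (0.12), Top2a (0.41) and Anapc4 (0.0026). With upper-quartile factors, 1 G1 regulator was higher and 1 replication gene lower, where 2895 of all 12441 genes tested were higher and 4190 lower. The medians were -0.21 over all members, -0.21 for G1 regulators and 0.31 for replication genes, and the summed ratios 0.012 and 0.14. There, 1 other G1 gene and 2 other replication genes were higher, and Cdk2 was at -0.036. Without E2f4, an alternative chosen after seeing the data, the G1 summed ratio was -0.071.

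With no count filter, 10 of all 45 members were higher, 4 of them G1 regulators, beside 4084 of all 20556 genes tested. Among the lower were 2 G1 regulators and 1 replication gene, beside 3558 of all genes tested. The medians, taken over more members than in the main fit, were 0.13 and -0.056, and Cdk4 was at 0.063. With the CPM filter, 1 replication gene, Prim1, was lower, where 3451 of all 13205 genes tested were. The medians there were 0.093 and 0.076 and Cdk4 was at 0.0070. DESeq2 called 2 members lower, both G1 regulators, 1 G1 regulator higher and 3 other replication genes lower. It called 3273 of all 12441 genes tested higher and 3089 lower. With limma-voom Cdk4 was at 0.030. The cause of these moves was not tested.

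Without 1 library at a time, 2 to 4 members were lower and the median over members was -0.045 to 0.19. Of the 12654 to 12882 genes tested, 3112 to 3692 were then higher and 2911 to 3552 lower. The count filter was run again each time, so the medians need not cover the same members. For G1 regulators 1 to 2 were higher and 2 to 4 lower, with medians of -0.11 to 0.17. For replication genes 0 to 2 were lower, the latter without saline replicate 2, with medians from 0.012, without cerulein replicate 1, to 0.43. The mitotic median was -0.63 to 0.30, above 0 only without saline replicate 1. Of the other lists, 2 to 5 replication genes and 2 to 4 mitotic genes were lower. Signs turned for Cdk4 (-0.21 to 0.17), Cdk6 (-0.22 to 0.0052), E2f1 (-0.30 to 0.26), Mcm2 (-0.38 to 0.048), Mcm4 (-0.98 to 0.081), Mki67 (-0.86 to 0.048) and Top2a (-0.40 to 0.55).

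E2f4, Cdkn2c, Mcm6 and Cdt1 kept their calls and directions in all 14 alternatives. Whether the replicate numbers pair the libraries is not known. The deviations of same-numbered libraries correlated at 0.19, 0.216 and -0.15, and those of the other pairs at -0.29 to 0.088. Deviations from means of 3 libraries cannot decide this, and the main fit used no pairing. With the replicate number as a block, 8 members were higher and 4 lower, adding Mcm3 and Mcm5, Cdk4 was at 0.0053 and Top2a at 0.025. Of all 12441 genes tested, 3673 were then higher and 3401 lower. Depth limits the mitotic genes and the other members under the count filter.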
